A study of Mus musculus with 40 samples.

Results

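Neurons make part of their protein away from the cell body, on ribosomes in dendrites and axons, and the mRNAs found on ribosomes there differ from those of the whole cell. The comparison described here asks for which genes the step from whole-cell to local ribosomes differed between layer 5 pyramidal neurons and GABAergic neurons. For each gene it is the log2 difference of ST and TRAP in the RBP4-TRAP line less the same difference in the VGAT-TRAP line, which is called the line-by-compartment difference below. A positive value means that a transcript stood higher in ST, relative to TRAP, in RBP4 than in VGAT libraries, and it can come from either line. All 41351 genes off the mitochondrial chromosome, of 41388 in the files, belong to the comparison. Of these, 16898 reached 0.5 cpm (counts per 1000000 counts) in at least 3 of the 20 TRAP and ST libraries and were tested.

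TRAP (translating ribosome affinity purification) captures ribosomes whose protein L10a carries GFP, together with the mRNA bound to them. Both lines carry a Cre-dependent EGFP/Rpl10a reporter, which RBP4-cre switches on in layer 5 pyramidal cells and the Vgat (Slc32a1) Cre in GABAergic neurons. TRAP was performed on whole-cell homogenate (WCH), and ST, or SynapTRAP, on the synaptoneurosome band (SNF) of a sucrose and Percoll gradient, which is rich in pinched-off pre- and postsynaptic parts. The mice were untreated and 21 d old, and each line gave 5 pools of forebrains of both sexes. All 4 fractions came from the same pool, so that equal numbers within a line pair ST with TRAP, but not RBP4 with VGAT. The 20 TRAP and ST libraries fall into 4 groups of 5, among 40 libraries in the series. The labels name the tissue cortex, whereas the methods describe forebrain dissections, and the expression of each Cre outside the named cells was not analysed here. Pools are the replicates within a group. Except where the pool was entered as a block, p values measure the spread between the libraries of a group and ignore which libraries share a pool. Counts are of RNA in bulk samples, in which fewer cells of a type and less RNA per cell cannot be told apart.

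The use of mRNA in neurites is best known for synaptic proteins: scaffolds such as Shank3, kinases and receptors are made near the synapse, while most neuropeptide precursors are thought to be made in the soma. GABAergic neurons of the forebrain arise under the Dlx transcription factors and use peptides such as somatostatin and VIP as co-transmitters. Pyramidal neurons of layer 5 are specified by Fezf2 and send long axons out of the cortex. A difference of differences takes out the level of a transcript in each line, as long as TRAP and ST carry a like share of RNA from other cells, and the marker sums given below show what each group carried.

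Once mitochondrial, rRNA and tRNA genes were removed, the 20 libraries kept between 11805104 and 21976631 counts, so that 1 count was worth between 0.0455 and 0.0847 cpm. Some libraries stood apart. Slc32a1, which encodes VGAT, reached 48.4 to 77.2 cpm in VGAT TRAP but no more than 4.99 cpm in RBP4 TRAP, and the library labelled RBP4 ST replicate 4 had 49.9 cpm. The remaining RBP4 ST libraries ran from 10.8 to 19.7 cpm, and VGAT ST from 23.3 to 51.4 cpm. The wider marker sums of RBP4 ST replicate 4 did not follow Slc32a1. Its GABAergic interneuron markers summed to 1825 cpm (group 1443 to 3036 cpm) and its striatal markers to 947 cpm (group 401 to 1081 cpm). Its layer 5 and glutamatergic sum of 8097 cpm was the highest of the group. Single genes went both ways. In RBP4 ST replicate 4, Dlx1, Lhx6 and Kcnc1 (163 cpm) were at the highest level of the group, and Vip and Sst at the lowest. RBP4 TRAP replicate 5 had the most RNA of oligodendrocyte markers (summed 5864 cpm, against 457 to 1099 cpm in the other RBP4 TRAP libraries), of astrocyte markers (5254 against 1112 to 1709 cpm) and of nuclear long noncoding RNAs (7842 against 1422 to 2944 cpm). Mitochondrial genes took 19.0% of the counts of VGAT ST replicate 3, against a median of 4.91% in its group. Endothelial markers summed to 861 cpm in RBP4 ST replicate 2, while the remaining libraries of that group had 43.8 to 198 cpm. VGAT ST replicates 4 and 5 had the highest sums of their group for nuclear long noncoding RNAs (5659 and 11066 cpm, against 884 to 2512 cpm). The same held for sex-linked genes (448 and 625 against 71.6 to 107 cpm) and GABAergic interneuron markers (6489 and 7434 against 2709 to 3812 cpm). For the noncoding RNAs, VGAT ST replicate 5 was above every other TRAP and ST library. Without RBP4 ST replicate 4 the numbers of genes past the threshold given next were 844 and 1017, without RBP4 TRAP replicate 5 they were 1013 and 885, without VGAT ST replicate 3 they were 865 and 1155, and without RBP4 ST replicate 2 they were 924 and 1119. Leaving out VGAT ST replicate 4 gave 817 and 884, and VGAT ST replicate 5 gave 835 and 821.

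GABAergic transcripts such as Dlx1 and Vip were lower in ST than in TRAP in VGAT libraries and higher in ST than in TRAP in RBP4 libraries, as were 23 and 21 of 29 interneuron markers. The layer 5 transcripts Etv1 and Fezf2 did the reverse, while the layer 5 and glutamatergic markers as a list were mixed, with 12 of 25 lower and 3 higher in ST in RBP4 and 14 higher and 5 lower in VGAT. Where edgeR's quasi-likelihood test gave an adjusted p up to 0.05, 849 genes (5.02% of those tested) had a higher and 978 (5.79%) a lower line-by-compartment difference in RBP4. At an unadjusted p under 0.05 these numbers were 1710 and 2310. With the pool as a replicate block, 512 and 477 genes passed. Of the 989 genes called with the block, 970 were also called without it, which is 98.1% of the former and 53.1% of the latter list. Scaling bore on the balance: TMM factors gave 926 and 917 genes, and DESeq2's size factors in the same test gave 1059 and 820, where 46.5% of the calls were higher without a factor and 56.4% with the latter. The median of the difference over all tested genes was -0.04, 0.00 with TMM and 0.06 with DESeq2's size factors, and that of ST less TRAP in RBP4 moved from -0.06 to 0.12 with the latter, so that small differences shift by as much. The 5 pool differences of RBP4 (ST less TRAP of log2(cpm + 0.5) within a pool) lay all above those of VGAT for 672 genes (3.98%) and all below for 587 (3.47%). In the untagged RNA of the same pools, the corresponding difference between SNF and WCH was past the edgeR threshold for 0 genes (0%), with 55 and 26 genes at an unadjusted p under 0.05.

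Within each line, ST and TRAP were far apart. In RBP4 libraries 4822 genes (28.5%) were higher and 5437 (32.2%) lower in ST than in TRAP, and in VGAT libraries 5918 (35.0%) and 5510 (32.6%), by the same edgeR test and threshold. The lines themselves differed for 2183 (12.9%, higher in RBP4) and 2546 (15.1%, lower) genes in TRAP, but for 10 (0.0592%) and 45 (0.266%) in ST. DESeq2's size factors turned the ST numbers into 15 and 28, and DESeq2 itself into 77 and 61. Without RBP4 ST replicate 4, the ST numbers were 33 and 162, and over all libraries left out in turn they ran from 1 to 33 and from 20 to 162. The median ST difference between the lines over all genes was -0.08, against 0.02 with TMM, where the unadjusted calls turned from 498 higher and 1439 lower to 1062 and 811. Of the 2183 genes higher in RBP4 TRAP, the median log2 difference between the lines was 1.15 in TRAP and 0.10 in ST, and 2159 of them were closer to 0 in ST. For the 2546 genes higher in VGAT TRAP it was -1.10 in TRAP and -0.28 in ST, with 2505 closer to 0. Both sets were chosen by their TRAP test, which by itself favours a smaller difference in ST. Over all 16898 tested genes, where no such choice enters, the SD of the log2 difference between the lines was 1.08 in TRAP and 0.50 in ST.

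**Figure D1:**
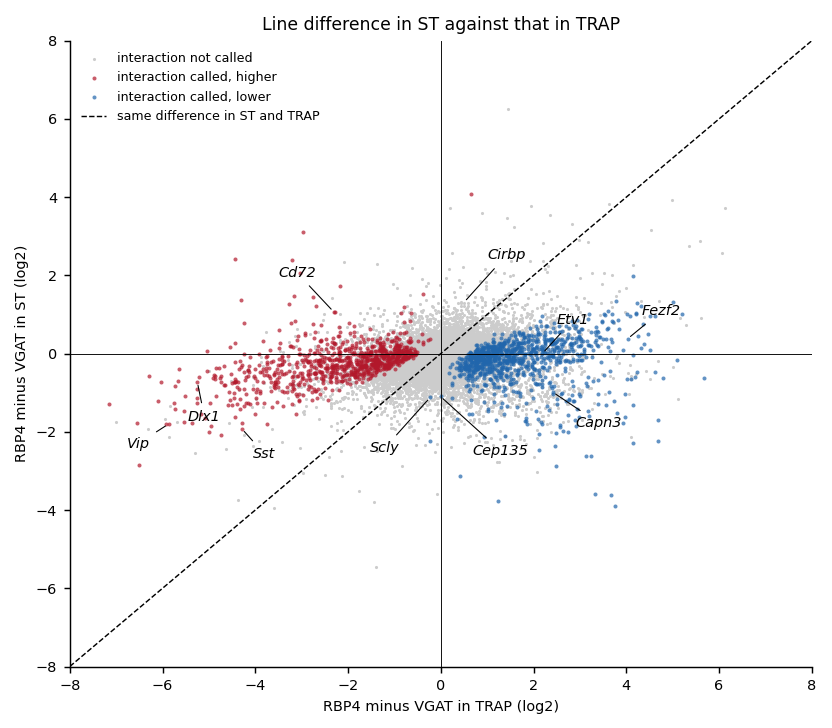
Log2 difference between the lines (RBP4 less VGAT, edgeR) in TRAP on the horizontal axis and in ST on the vertical axis, 1 point per tested gene, with the 849 genes of higher and the 978 of lower line-by-compartment difference coloured and the diagonal marking equal differences. The coloured genes spread widely along the TRAP axis and stay near 0 on the ST axis, with medians of -1.98 in TRAP and -0.23 in ST for the higher and 1.49 and -0.10 for the lower genes.

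The line-by-compartment difference equals the difference between the lines in ST less that in TRAP, so that the same TRAP libraries enter both and the opposite signs of TRAP difference and line-by-compartment difference are no separate result. Among the 849 higher genes, 622 (73.3%) kept the sign of their TRAP difference in ST at a smaller size, 226 had the opposite sign and 1 was larger in ST. Of the 978 lower genes 394 (40.3%) kept the sign at a smaller size, 581 (59.4%) had the opposite sign and 3 were larger. Over all tested genes these shares were 44.4%, 38.5% and 17.1%. By line, the median ST less TRAP of the 849 genes was 0.88 in RBP4 and -1.07 in VGAT. For 450 of them ST was above TRAP in RBP4 and below it in VGAT, 464 passed the test upward in RBP4, and 540 downward in VGAT. For the 978 genes the medians were -0.33 in RBP4 and 1.39 in VGAT, with 513 below TRAP in RBP4 and above it in VGAT, 381 past the test downward in RBP4 and 725 upward in VGAT. ST libraries were closer to the untagged SNF of their line than TRAP libraries were, by the distance of group means, for 79.9% of the 849 genes in RBP4 and 82.8% in VGAT, and for 74.9% and 81.4% of the 978 genes. The shares over all tested genes were 76.7% and 78.6%. The part of untagged SNF RNA in the ST libraries was not tested.

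Nearly all markers of GABAergic interneurons had positive values. Of 29 markers of GABAergic interneurons, 28 had a higher line-by-compartment difference in RBP4 and 0 a lower one. Those called were 96.55% of the list, against 10.8% of all genes. The median was 3.45 (against -0.04 over all genes), and 28 passed with the block as well. The exception was Lamp5 (-0.57, edgeR adjusted p = 0.363). Of the 29 genes, 23 were lower in ST than in TRAP in VGAT libraries and 21 were higher in ST than in TRAP in RBP4 libraries. Summed over the list, their level ran from 13576 to 16998 cpm in VGAT TRAP, from 2709 to 7434 cpm in VGAT ST, from 947.7 to 1608 cpm in RBP4 TRAP and from 1443 to 3036 cpm in RBP4 ST. The VGAT libraries thus stayed above most RBP4 libraries in both compartments, with an overlap in ST.

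Dlx1 (chromosome 2, 71528113 to 71533981, GRCm38), a homeobox factor of forebrain GABAergic neurons, had the smallest p of all named genes. In pools 1 to 5 of the RBP4 line it was at 2.68, 2.72, 3.11, 1.73 and 2.52 cpm in TRAP and at 5.98, 6.35, 8.85, 9.69 and 6.95 cpm in ST. In the VGAT pools it was at 111, 97.4, 82, 115 and 81.1 cpm in TRAP and 10, 10.6, 14.6, 13.2 and 14.1 cpm in ST. The groups of libraries did not overlap: VGAT TRAP was far above the rest, VGAT ST next, and RBP4 TRAP lowest. The line-by-compartment difference was 4.53 (standard error 0.27, edgeR adjusted p = 1.31e-12), made of 1.57 in RBP4 and -2.96 in VGAT. Between the lines, ST libraries differed by -0.72 (edgeR adjusted p = 0.0998), and by -0.83 (edgeR adjusted p = 0.0317) without RBP4 ST replicate 4.

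Lhx6, which directs the migration and identity of interneurons from the medial ganglionic eminence, was at 3.28, 3.76, 5.86, 2.09 and 5.1 cpm in RBP4 TRAP and 6.04, 5.22, 10.7, 15 and 9.27 cpm in RBP4 ST. VGAT libraries had 150, 138, 88.3, 127 and 103 cpm in TRAP and 13.3, 10, 15.7, 15.6 and 16.2 cpm in ST. Its ST groups overlapped, its TRAP groups did not, and the difference was 4.30 (standard error 0.36, edgeR adjusted p = 1.12e-09). Dlx6 (4.43), Sp9 (4.62) and Maf (3.33), transcription factors of the same neurons, had values of like size, with a largest edgeR adjusted p of 1.18e-08. Sp9 rose from 1.3 to 5.34 cpm in RBP4 and fell from 42.9 to 7.23 cpm in VGAT. For Dlx6 the level in RBP4 ST was 0.992 ± 0.178 cpm (SD, n = 5), and its difference of 0.70 from RBP4 TRAP did not pass (edgeR adjusted p = 0.0521), so that VGAT libraries with a change of -3.72 carried the result.

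Outside the marker list, Pcp4l1, a small relative of the calmodulin-binding peptide Pcp4, was among the genes with the smallest p. In RBP4 pools it was at 35.5, 23.4, 25.6, 24.5 and 26.8 cpm in TRAP and at 51.6, 47.1, 45.7, 45.7 and 58.6 cpm in ST, and in VGAT pools at 891, 883, 682, 776 and 735 cpm and 60.6, 51.9, 83.3, 82.6 and 112 cpm. VGAT TRAP stood far above every other group, while the ST groups of the lines overlapped at their margins. The difference was 4.22 (standard error 0.27, edgeR adjusted p = 1.93e-12). Syndig1l, a transmembrane protein related to the synapse differentiation factor Syndig1, rose in ST in RBP4 (6.85, 4.11, 5.14, 6.01 and 12.4 cpm in TRAP, 52.5, 32.6, 30, 65.5 and 40.7 cpm in ST) and fell in VGAT (189, 176, 158, 164 and 175 cpm and 70.8, 69.2, 74.5, 69.5 and 104 cpm). None of the groups overlapped, and the line-by-compartment difference was 3.84 (standard error 0.32, edgeR adjusted p = 1.14e-09). Rbms3, an RNA-binding protein (4.02), and Ubash3b, a phosphatase (3.13), also had some of the smallest p values in this direction (edgeR adjusted p = 2.43e-10 and 1.32e-09).

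Markers of striatal neurons, most of which are GABAergic, had positive values as well. All 18 markers on the list passed (median 2.84), against 10.8% of all genes, and 17 did so with the block. Among the 18 were Chat (2.86), Slc18a3 (3.31) and Slc5a7 (2.29), which mark cholinergic neurons. Ppp1r1b, which encodes a phosphatase inhibitor of dopamine signalling, was at 70.6, 46, 76.7, 93.1 and 95.7 cpm in RBP4 TRAP and 77.9, 43, 40.7, 87.3 and 140.5 cpm in RBP4 ST. In VGAT it was at 1436, 1659, 819.5, 998 and 1258 cpm in TRAP and 71.2, 84.5, 90.9, 110.2 and 158 cpm in ST. Only VGAT TRAP stood apart, and the other 3 groups overlapped. The line-by-compartment difference of 3.61 (standard error 0.45, edgeR adjusted p = 1.43e-06) therefore lay in VGAT (-3.58), with 0.03 in RBP4 (edgeR adjusted p = 0.946). Six3, a homeobox factor, reached 4.98 (edgeR adjusted p = 1.18e-08) at 29.9 cpm in VGAT TRAP and 0.588 cpm in RBP4 TRAP. Rasd2, a striatal GTP-binding protein, had 2.42 (edgeR adjusted p = 9.03e-07).

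**Figure D2:**
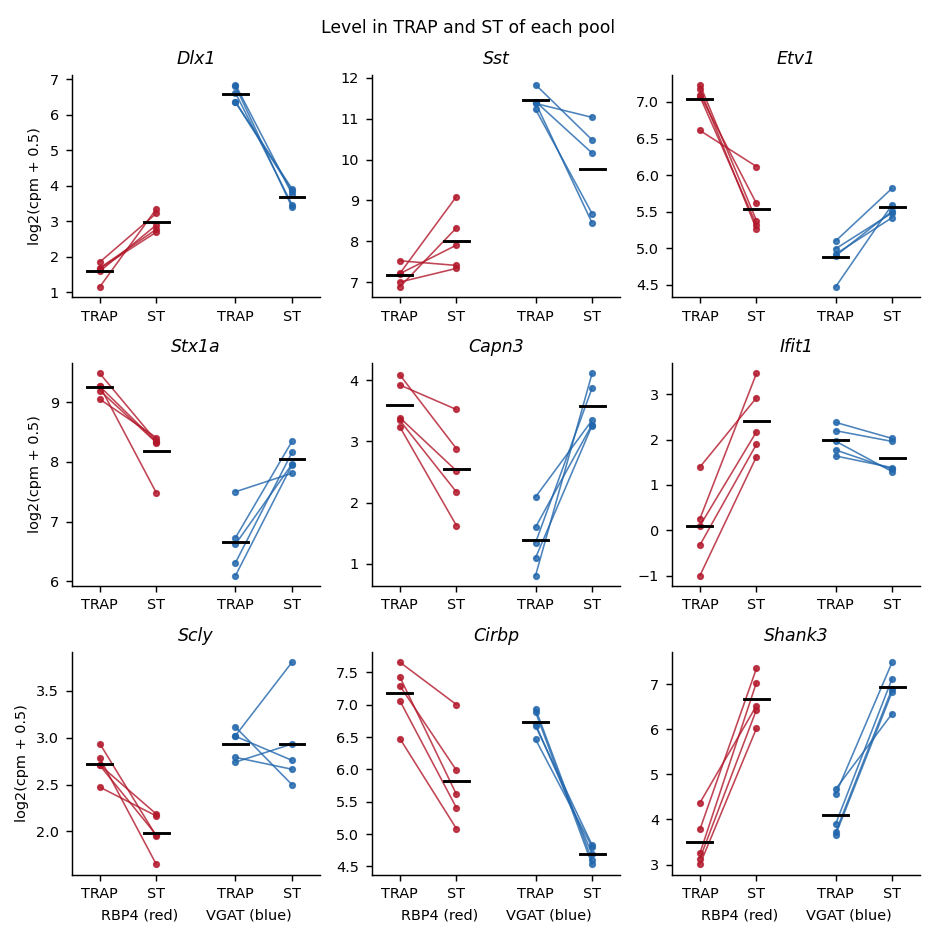
Level of 9 genes as log2(cpm + 0.5) on the vertical axis, in TRAP and ST of the RBP4 and VGAT lines on the horizontal axis, where each line joins the 2 libraries of 1 pool and the black bar is the mean of 5 pools. Dlx1 climbs from TRAP to ST in RBP4 and drops in VGAT in every pool, while Etv1 drops in RBP4 and climbs in VGAT. Shank3 climbs in every pool of both lines.

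Neuropeptide genes were mostly on the higher side. Of 28 neuropeptide and peptide-processing genes 12 were higher and 3 lower, 53.6% of the list against 10.8% of all genes, with a median of 0.56, and the block gave 12 and 3. Most of the 12 are members of lists given above, so that their calls are no separate result. Pnoc, Vip, Tac2, Npy, Crh, Sst and Cort are on the interneuron list, and Penk, Tac1 and Pdyn on the striatal list. Only Crhbp and Cartpt are on neither. Vip, the vasoactive intestinal peptide of an interneuron class, was at 11.6, 4.26, 9.19, 6.28 and 16.9 cpm in RBP4 TRAP and rose to 80.8, 76, 50.9, 45.3 and 66.8 cpm in RBP4 ST. In VGAT pools it was at 474, 496, 613, 629 and 601 cpm in TRAP and 83.8, 122, 168, 392 and 352 cpm in ST, lower in ST in each of the 5 pools. No 2 groups overlapped, and VGAT ST kept more Vip than RBP4 ST. Its line-by-compartment difference was 4.06 (standard error 0.45, edgeR adjusted p = 2.04e-07) and the ST difference between the lines -1.80 (edgeR adjusted p = 0.00451).

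Sst (chromosome 16, 23889581 to 23890844, GRCm38), the somatostatin precursor, was at 118, 148, 183, 128 and 147 cpm in RBP4 TRAP and 320.2, 546, 169, 161 and 239 cpm in RBP4 ST, the latter higher in 4 of 5 pools. VGAT libraries held 2685, 2401, 2739, 3648 and 2651 cpm in TRAP and 349, 409, 1143, 1429 and 2094 cpm in ST. The TRAP groups were far apart, whereas VGAT ST replicates 1 and 2 lay below RBP4 ST replicate 2, the highest of its group. Sst had a line-by-compartment difference of 2.37 (standard error 0.47, edgeR adjusted p = 0.000689) and an ST difference of -1.92 (edgeR adjusted p = 0.00451), higher in VGAT. Cort (chromosome 4, 149125034 to 149126763), which encodes the related peptide cortistatin, was at 4.23, 3.81, 5.09, 6.83 and 4.93 cpm in RBP4 TRAP and 6.16, 8.28, 4.13, 4.63 and 6.83 cpm in RBP4 ST. Its VGAT values were 60, 59, 55.1, 93 and 67 cpm in TRAP and 8.92, 9.97, 21.4, 29.1 and 36.6 cpm in ST, so that every VGAT ST library was above every RBP4 ST library. The line-by-compartment difference of Cort was 1.93 (standard error 0.39, edgeR adjusted p = 0.001), with -1.66 in VGAT and 0.27 in RBP4 (edgeR adjusted p = 0.42). Both peptides were thus higher in VGAT than in RBP4 in ST, and by less than in TRAP, where the differences were -4.29 and -3.74.

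Pnoc, the nociceptin precursor (3.62, edgeR adjusted p = 1.2e-07), Crhbp, which binds corticotropin-releasing hormone (2.81, edgeR adjusted p = 3.8e-07), and Tac2, the neurokinin B precursor (3.58, edgeR adjusted p = 3.53e-06), rose in ST in RBP4 and fell in VGAT. Pnoc went from 2.76 to 14.1 cpm in RBP4 and from 99.9 to 41.4 cpm in VGAT. The 3 peptide genes with a lower value were Adcyap1 (-3.16), Grp (-2.37) and Cck (-1.46), of which the first makes PACAP, the second gastrin-releasing peptide and the last cholecystokinin.

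Layer 5 and other glutamatergic markers had the opposite sign. Of 25 tested markers 14 were lower and 4 higher in the line-by-compartment difference (72% called, against 10.8% of all genes, median -1.59). With the block 12 were lower and 3 higher. Their summed level was 3536 to 4456 cpm in RBP4 TRAP and 1342 to 2459 cpm in VGAT TRAP. In ST it was 4992 to 8097 cpm in RBP4 and 6077 to 7058 cpm in VGAT, so that the ST groups overlapped and VGAT ST exceeded every TRAP library. The 4 higher genes were Foxp2 (2.08, edgeR adjusted p = 2.87e-05), Tle4 (0.84), Bcl11b (0.85), each a transcriptional regulator, and Rbp4 itself (1.24), which lost its call with the block (edgeR adjusted p = 0.11). All 4 were lower in RBP4 than in VGAT TRAP. Bcl11b and Foxp2 are also known from striatal neurons.

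Etv1 (chromosome 12, 38779380 to 38868215, GRCm38), an ETS transcription factor of layer 5, was at 134, 150.4, 137, 144 and 97.2 cpm in RBP4 TRAP and 39.4, 41.1, 48.4, 37.8 and 68.9 cpm in RBP4 ST. In VGAT pools it was at 31.3, 29.2, 33.7, 21.7 and 29.8 cpm in TRAP and 44.2, 44.9, 56, 47.8 and 42.2 cpm in ST. The ST groups lay together, and RBP4 TRAP was above and VGAT TRAP below them in every library. Its line-by-compartment difference was -2.18 (standard error 0.22, edgeR adjusted p = 3.49e-08), with an ST difference between the lines of 0.00 (edgeR adjusted p = 0.997). Fezf2, the factor that specifies subcerebral projection neurons, was at 120, 142, 117, 168 and 79.5 cpm in RBP4 TRAP and 17.1, 17.6, 10.8, 19.5 and 46.4 cpm in RBP4 ST. VGAT pools had 4.27, 4.1, 18.6, 5.76 and 5.69 cpm in TRAP and 18.9, 16.7, 17.2, 17.9 and 14.9 cpm in ST, where the TRAP library of pool 3 lay apart from the other 4. The difference was -3.65 (standard error 0.49, edgeR adjusted p = 4.09e-06). Emx1, a homeobox factor of the dorsal forebrain (-3.13, edgeR adjusted p = 5.92e-05), Neurod2 (-3.02) and Neurod6 (-3.02), neuronal differentiation factors, and Slc17a7, the vesicular glutamate transporter (-2.68), followed in the same direction. For Slc17a7, ST was above TRAP in the group means of both lines (0.61 in RBP4 and 3.29 in VGAT).

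**Figure D3:**
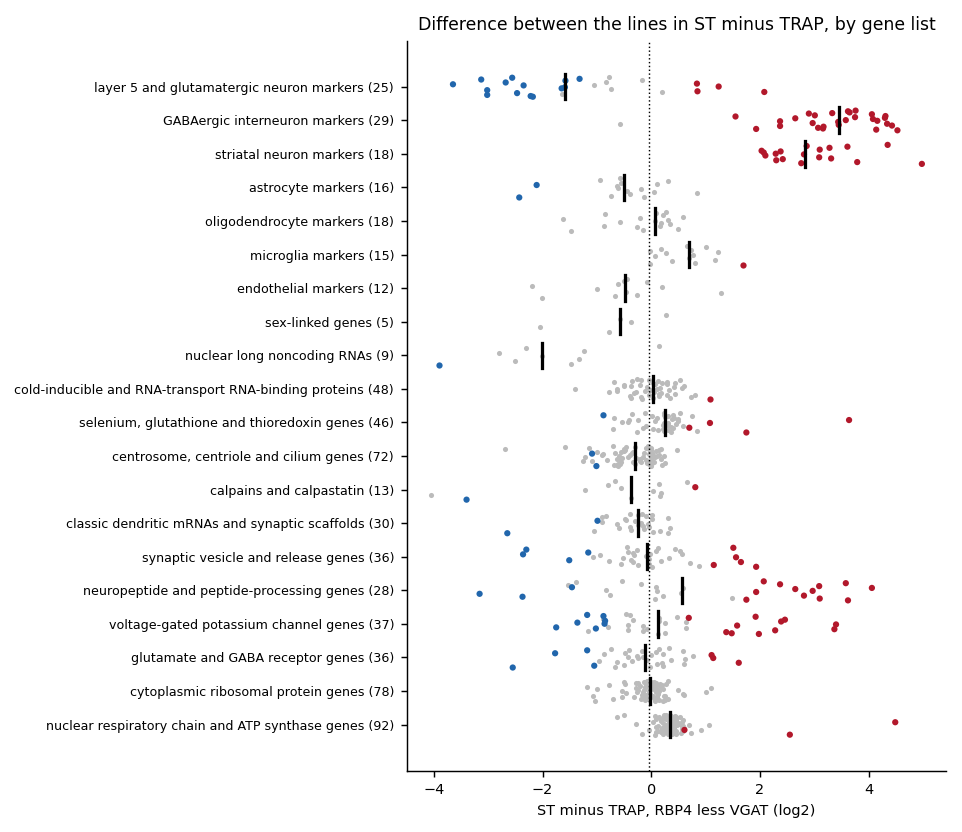
Line-by-compartment difference (log2, horizontal axis) of every tested member of the gene lists, 1 point per gene and 1 row per list, with called genes in colour and the median of each list as a bar. The interneuron and striatal lists lie to the right with medians of 3.45 and 2.84, the layer 5 list to the left with -1.59. The 9 nuclear long noncoding RNAs also lie to the left with -2.01, but only 1 of them was called, and 0 with the block. The medians of the other lists lie between -0.57 and 0.70.

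Genes of the presynaptic machinery appeared on both sides. In the list of 36 synaptic vesicle and release genes 5 were higher and 4 lower (25% called, against 10.8% of all genes). The median was -0.07, and 5 and 2 passed with the block. Stx1a (chromosome 5, 135023482 to 135051100, GRCm38), the syntaxin of the core fusion complex, was at 529, 614, 616, 585 and 714 cpm in RBP4 TRAP and 339, 322, 178, 319.9 and 325 cpm in RBP4 ST. VGAT pools had 79.1, 68, 181, 98.1 and 106 cpm in TRAP and 285, 247, 224, 249 and 324 cpm in ST, higher in ST in each of the 5 pools. ST levels of the lines overlapped and lay between the TRAP levels, except that RBP4 ST replicate 3 was below VGAT TRAP replicate 3. For Stx1a the line-by-compartment difference was -2.36 (standard error 0.29, edgeR adjusted p = 9.44e-07). Sv2b, a vesicle glycoprotein of glutamatergic terminals, had -2.30 (edgeR adjusted p = 0.00022): it was at 38.6, 43, 129.5, 38.5 and 98.1 cpm in VGAT TRAP and 558, 661, 298, 329.9 and 292 cpm in VGAT ST, while RBP4 held 406 to 549.6 cpm in TRAP and 279 to 852 cpm in ST. Vamp1, a vesicle SNARE, fell in both lines, from 306, 329.9, 251, 301 and 249 to 48.7, 50.9, 52.4, 51.6 and 58.5 cpm in VGAT and from 51.1, 75.2, 71.9, 57.8 and 73.8 to 40.5, 42.7, 43.5, 48 and 53.8 cpm in RBP4. Only VGAT TRAP stood apart for Vamp1, and the difference was 1.93 (standard error 0.19, edgeR adjusted p = 1.38e-08). Cplx3, a complexin, had 1.65 (edgeR adjusted p = 2.18e-05).

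Ion channels that shape firing were among the called genes. Of 37 voltage-gated potassium channel genes 11 were higher and 7 lower (48.6% called, against 10.8% of all genes, median 0.13). The block gave 10 and 5. Kcnc1, a Kv3 channel of fast-firing interneurons, was at 25.3, 19.4, 26.6, 19.7 and 30 cpm in RBP4 TRAP and 71, 89.7, 81.9, 163 and 62 cpm in RBP4 ST. In VGAT it was at 188, 183, 189.9, 216 and 178 cpm in TRAP and 194, 237, 177, 182 and 187 cpm in ST. VGAT TRAP and ST lay together, RBP4 ST lay below them and RBP4 TRAP lowest. The line-by-compartment difference was 1.92 (standard error 0.25, edgeR adjusted p = 3.08e-06), and came from RBP4 (1.95), with 0.03 in VGAT (edgeR adjusted p = 0.871). Kcnc2, a channel of the same family, changed in both lines, from 23.8, 24.1, 24.1, 23.7 and 28.3 to 62.7, 83.9, 51.9, 70.5 and 56.5 cpm in RBP4 and from 212, 253, 249, 327 and 251 to 102, 107, 94.4, 188 and 156 cpm in VGAT. The 4 groups of Kcnc2 did not overlap, with a difference of 2.39 (standard error 0.25, edgeR adjusted p = 5.68e-08). Kcnip2, a subunit of A-type channels (1.98), and Kcnmb2, a subunit of the calcium-activated BK channel (3.37), had edgeR adjusted p values of 1.37e-08 and 1.88e-06.

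Among 36 receptors for glutamate and GABA, 3 were higher and 4 lower (19.4% called, against 10.8% of all genes, median -0.11). The block gave 2 and 1. Grm2, a presynaptic metabotropic glutamate receptor, was at 4.02, 4.1, 14.9, 6.55 and 7.68 cpm in VGAT TRAP and rose to 66.5, 70.4, 45.2, 35.5 and 42.5 cpm in VGAT ST. RBP4 had 50.7, 58.5, 64.9, 67.5 and 52 cpm in TRAP and 41.5, 135, 35.2, 62.7 and 75.4 cpm in ST, groups that overlapped. The difference was -2.55 (standard error 0.42, edgeR adjusted p = 6.51e-05). Grin3a, an NMDA receptor subunit, had 1.11 (edgeR adjusted p = 0.000534) and Grik1, a kainate receptor subunit, 1.61 (edgeR adjusted p = 0.00739). Gabra5, a GABA-A receptor subunit, had -1.18 (edgeR adjusted p = 0.00788), and 0.0904 with the block.

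Transcripts long known from dendrites were mostly higher in ST than in TRAP. Of 30 dendritic mRNAs and synaptic scaffolds, 21 were higher in ST in RBP4 and 24 in VGAT, against 28.5% and 35.0% of all genes. In the line-by-compartment difference 0 had a higher and 2 a lower value (6.67% called, against 10.8% of all genes, median -0.24), and 1 with the block. Shank3 (chromosome 15, 89499623 to 89560261, GRCm38), a scaffold of the postsynaptic density, was at 8.28, 7.53, 9.03, 13.2 and 20.2 cpm in RBP4 TRAP and 85.8, 64.3, 131, 162 and 91.3 cpm in RBP4 ST. VGAT pools had 14.4, 12.7, 23, 12.2 and 25 cpm in TRAP and 139, 119, 178, 113 and 80.8 cpm in ST. In both lines every ST library was above every TRAP library, and the lines overlapped in each compartment. ST less TRAP was 3.20 in RBP4 and 2.85 in VGAT, and the difference of 0.34 (standard error 0.38, edgeR adjusted p = 0.653) did not pass. Bdnf, a growth factor made by excitatory neurons, had the smallest p of this list. It was at 125, 138, 111, 149 and 54.3 cpm in RBP4 TRAP and 72.7, 189.7, 37.7, 55.9 and 70.3 cpm in RBP4 ST, and at 7.27, 5.29, 33.9, 9.46 and 15.6 cpm in VGAT TRAP and 62.2, 79.7, 55.3, 79.5 and 53.4 cpm in VGAT ST. VGAT TRAP lay below every other group, and the other groups overlapped. Its difference was -2.65 (standard error 0.54, edgeR adjusted p = 0.000965).

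Few genes differed between the lines in ST beyond what TRAP showed, or against it. By an unadjusted p under 0.05 for both the ST difference between the lines and the line-by-compartment difference, with the same sign, and with genes called in WCH left out, 50 genes (0.296%) were higher and 331 (1.96%) lower in RBP4. These numbers followed the scaling: TMM gave 108 and 186, and DESeq2's size factors 176 and 148. Leaving out RBP4 ST replicate 4 gave 122 and 515, RBP4 ST replicate 2 gave 102 higher, VGAT ST replicate 4 gave 78 higher and VGAT ST replicate 3 gave 513 lower, and over all fits without 1 library they ran from 33 to 122 and from 145 to 515. The lowest counts were 33 higher without RBP4 ST replicate 5 and 145 lower, in place of 331, without VGAT ST replicate 5. When both p values had to pass after adjustment, 1 higher and 4 lower genes were left. These were 1700064M15Rik (3.44), Scly, BC065397 (-1.99), Gm7420 (-3.53) and Cep135, named here after their values had been seen. Of these, 1700064M15Rik, BC065397 and Gm7420 had means of at most 0.506 cpm, and the pool differences of all 5 overlapped between the lines. A median of -0.85 in ST and 0.55 in TRAP described the 331 lower genes, and 0.83 and -0.31 the 50 higher ones.

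Scly (chromosome 1, 91298338 to 91321075, GRCm38), the lyase that frees selenium from selenocysteine, was at 6.02, 6.04, 7.16, 5.05 and 6.39 cpm in RBP4 TRAP and 3.39, 4.05, 3.36, 3.98 and 2.63 cpm in RBP4 ST. In VGAT it was at 8.16, 6.42, 7.59, 6.18 and 7.63 cpm in TRAP and 5.15, 5.84, 6.27, 7.14 and 13.5 cpm in ST. Every RBP4 ST library lay below every library of the other groups, VGAT TRAP and RBP4 TRAP overlapped, and VGAT ST replicate 5 stood far above its group. ST less TRAP was -0.81 in RBP4 (edgeR adjusted p = 0.00113), lower in ST in each of the 5 pools, and 0.07 in VGAT (edgeR adjusted p = 0.759), higher in ST in 2 of 5. The line-by-compartment difference was -0.88 (standard error 0.29, edgeR adjusted p = 0.0431), and the ST difference between the lines -1.12 (edgeR adjusted p = 0.00723, and past the threshold without any 1 of the 20 libraries). With the block the adjusted p was 0.245. The call was also lost without RBP4 ST replicates 1, 3 and 5, RBP4 TRAP replicates 1, 2, 3 and 5, VGAT ST replicates 4 and 5 and VGAT TRAP replicates 2, 4 and 5 (edgeR adjusted p = 0.0503 to 0.137), and the value without VGAT ST replicate 5 was -0.57. Untagged RNA gave -0.01 for Scly.

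Cep135 (chromosome 5, 76588698 to 76646466, GRCm38), a protein of the centriole wall, was at 4.71, 2.43, 3.69, 4.09 and 2.91 cpm in RBP4 TRAP and 1.21, 1.22, 1.55, 2.42 and 3.07 cpm in RBP4 ST. VGAT pools had 3.31, 3.45, 3.51, 3.91 and 3.69 cpm in TRAP and 4.65, 5.55, 2.63, 3.05 and 4.19 cpm in ST. RBP4 ST was the lowest group, but its replicate 5 reached into RBP4 TRAP and VGAT ST, and the TRAP groups overlapped. The line-by-compartment difference was -1.09 (standard error 0.35, edgeR adjusted p = 0.04), with -0.91 in RBP4 (edgeR adjusted p = 0.00229) and 0.17 in VGAT (edgeR adjusted p = 0.539). With the block the adjusted p was 0.208, and the call was lost without RBP4 ST replicates 1, 2 and 3, RBP4 TRAP replicates 1, 3 and 4, VGAT ST replicates 1, 2 and 5 and VGAT TRAP replicates 1, 2, 3, 4 and 5 (edgeR adjusted p = 0.0511 to 0.0909). Between the lines, ST differed by -1.09 (edgeR adjusted p = 0.046) and TRAP by -0.01 (edgeR adjusted p = 0.99). The ST call was lost on leaving out, 1 at a time, RBP4 ST replicates 1, 2 and 3, RBP4 TRAP replicates 3 and 4, VGAT ST replicates 1, 2 and 5 and VGAT TRAP replicates 1, 2, 3, 4 and 5 (edgeR adjusted p = 0.0521 to 0.13).

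Cirbp (chromosome 10, 80165985 to 80172786, GRCm38), an RNA-binding protein induced by cold, fell from TRAP to ST in every pool of both lines. It was at 133, 88.6, 156, 172 and 201 cpm in RBP4 TRAP and 41.9, 33.4, 62.9, 48.5 and 128 cpm in RBP4 ST, and at 122, 103, 101, 118 and 87.9 cpm in VGAT TRAP and 23.6, 25.4, 27.9, 22.6 and 27.4 cpm in VGAT ST. All RBP4 ST libraries were above all VGAT ST libraries, replicate 5 by the most, and the TRAP groups overlapped. ST less TRAP was -1.26 in RBP4 and -2.07 in VGAT, and the line-by-compartment difference of 0.81 (standard error 0.39, edgeR adjusted p = 0.2) did not pass. The ST difference of 1.31 did (edgeR adjusted p = 0.0265), but not after leaving out, 1 at a time, RBP4 ST replicates 3 and 5 and VGAT ST replicates 1, 2, 4 and 5 (edgeR adjusted p = 0.0534 to 0.151). Gsr, glutathione reductase, was at 17.4, 15.5, 24.2, 19.6 and 25.8 cpm in RBP4 ST and 15.2, 15.5, 16.2, 11.8 and 13 cpm in VGAT ST, with TRAP at 21.6 to 32.9 cpm and 21 to 30.5 cpm. Its ST groups overlapped, and neither its line-by-compartment difference of 0.50 (edgeR adjusted p = 0.136) nor its ST difference of 0.51 (edgeR adjusted p = 0.153) passed.

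Capn11, a calpain protease, rested on few counts. In the RBP4 libraries it had 1, 1, 2, 0 and 23 counts in TRAP of pools 1 to 5 and 0, 0, 0, 1 and 1 counts in ST. The VGAT libraries had 7, 19, 3, 16 and 26 counts in TRAP and 19, 27, 5, 14 and 34 counts in ST. RBP4 ST stayed below 3 counts, the limit that a count of 0 allows (0.141 to 0.194 cpm in these libraries, for counting error only), and RBP4 TRAP exceeded it only in replicate 5. The fitted difference of -4.05 depends on the handling of zeros and did not pass (edgeR adjusted p = 0.0831), while the ST difference between the lines did (edgeR adjusted p = 0.0265), but not after leaving out, 1 at a time, RBP4 ST replicates 1, 2, 3 and 5 and VGAT ST replicate 5 (edgeR adjusted p = 0.0503 to 0.0954). Without RBP4 TRAP replicate 4 the line-by-compartment difference was -4.39 (edgeR adjusted p = 0.0498).

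**Figure D4:**
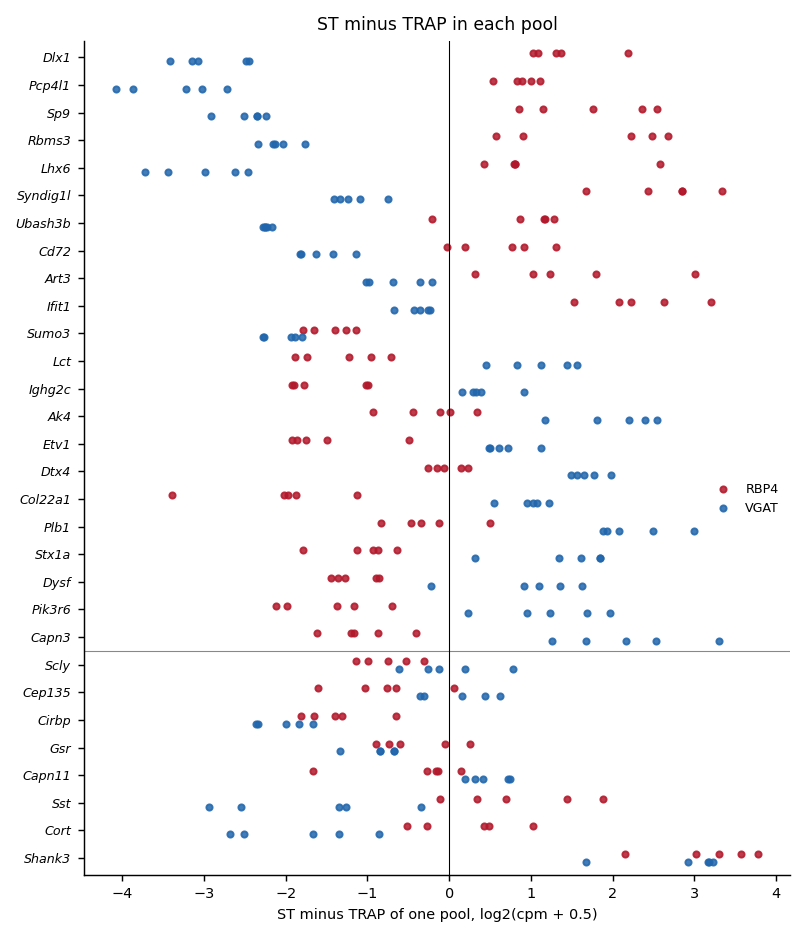
ST less TRAP of log2(cpm + 0.5) within each of the 5 pools of RBP4 and of VGAT (horizontal axis) for the genes of the text, 1 row per gene. Scly, Cep135, Cirbp, Gsr and Shank3 overlap between the lines. The 5 RBP4 pools of Dlx1 lie all above and those of Etv1 all below the VGAT pools. That separation was required when Dlx1 and Etv1 were chosen, and is no separate result.

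An ST difference beyond TRAP with a called line-by-compartment difference, separate pools and at least 1 cpm was found for 33 genes on the lower and 4 on the higher side. Both are small parts of the 16898 tested genes. They were drawn from the 331 lower and 50 higher genes given above, whose balance followed the scaling. The 33 and 4 were counted with library-size scaling only, so that their balance cannot be read apart from it. The 6 lower genes of smallest p were Dtx4, Plb1, Capn3, Lct, Ighg2c and Ak4. Dtx4, an E3 ubiquitin ligase of the Notch pathway, was at 50.1, 50.4, 42.9, 43.5 and 35.5 cpm in RBP4 TRAP and 45.3, 42.1, 47.7, 51.3 and 34 cpm in RBP4 ST. In VGAT it was at 15.2, 16.5, 21.2, 16.1 and 16.2 cpm in TRAP and 61.5, 52.7, 63.5, 56.2 and 46.4 cpm in ST. VGAT TRAP lay far below the other groups, which overlapped in part. The difference was -1.73 (standard error 0.20, edgeR adjusted p = 5.67e-07), with 1.72 in VGAT and -0.01 in RBP4 (edgeR adjusted p = 0.939). Capn3, a calpain best known from muscle, was at 9.95, 16.5, 8.93, 14.7 and 9.64 cpm in RBP4 TRAP and 5.24, 6.87, 2.58, 11 and 4.01 cpm in RBP4 ST. Its VGAT libraries had 2.04, 1.25, 3.76, 1.64 and 2.53 cpm in TRAP and 14.1, 16.8, 9.66, 9.07 and 9.17 cpm in ST, so that Capn3 fell in ST in RBP4 and rose in VGAT in every pool. Its line-by-compartment difference was -3.40 (standard error 0.43, edgeR adjusted p = 1.57e-06).

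Ak4, a mitochondrial adenylate kinase, was at 29, 45.1, 23.9, 30.5 and 22.2 cpm in RBP4 TRAP and 21.1, 23.4, 24, 38.9 and 20.6 cpm in RBP4 ST. VGAT had 9.05, 6.48, 12.8, 5.87 and 9.14 cpm in TRAP and 32.8, 36.3, 60.6, 36.5 and 21.3 cpm in ST. Only VGAT TRAP was separate, and the difference was -2.35 (standard error 0.35, edgeR adjusted p = 1.58e-05). Plb1, a phospholipase, had -2.85 (edgeR adjusted p = 8.58e-07) with 0.956, 1.54, 2.3, 1.96 and 2.28 cpm in VGAT TRAP and 7.7, 7.31, 9.83, 19.1 and 11.3 cpm in VGAT ST, against 6.37 to 9.58 cpm and 4.91 to 9.89 cpm in RBP4. Lct, the lactase gene (-2.83), and the immunoglobulin segment Ighg2c (-2.19) had edgeR adjusted p values of 7.85e-06 and 1.44e-05. Ighg2c is a gene of plasma cells and lies in a family of near-identical copies, so that its counts are uncertain. For none of these 6 genes did the ST difference pass after adjustment, where the smallest adjusted p was 0.163 for Capn3, and 0.0203 without RBP4 ST replicate 4. The remaining genes of smallest p and negative sign were Col22a1, a collagen (-4.06), Dysf, the membrane-repair protein dysferlin (-2.38), and Pik3r6, a regulatory subunit of PI3K (-2.97). In these 3 the ST libraries lay between the TRAP libraries in group means, as for Dysf with 13.5 cpm in RBP4 TRAP, 5.72 cpm in RBP4 ST, 2.47 cpm in VGAT TRAP and 5.44 cpm in VGAT ST.

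The 4 genes on the higher side were Cd72, Ifit1, Art3 and Sumo3. For none of them did the ST difference between the lines pass after adjustment. Its edgeR adjusted p was 0.291 for Cd72, 0.375 for Ifit1, 0.404 for Art3 and 0.264 for Sumo3. Cd72, a receptor of B cells, was at 0.775, 0.347, 0.415, 0.364 and 0.56 cpm in RBP4 TRAP and 0.748, 0.941, 1.23, 0.484 and 2.13 cpm in RBP4 ST, and at 2.61, 2.26, 2.1, 2.59 and 2.67 cpm in VGAT TRAP and 0.665, 0.283, 0.339, 0.372 and 0.939 cpm in VGAT ST. VGAT TRAP lay above the other 3 groups, but for RBP4 ST replicate 5 at the lower end of its range, and those 3 groups overlapped. Its difference was 3.38 (standard error 0.56, edgeR adjusted p = 7.78e-05). Ifit1, an interferon-induced RNA-binding protein, rose in RBP4 from 0.298, 0.693, 0.571, 0 and 2.13 cpm to 3.22, 10.5, 4.01, 2.58 and 7.08 cpm, and was at 2.61, 2.91, 4.08, 4.7 and 3.4 cpm in VGAT TRAP and 2.1, 2.04, 3.39, 3.57 and 1.95 cpm in VGAT ST. Here RBP4 TRAP was the group that stood low, with replicate 5 reaching into VGAT ST, and the difference was 3.35 (standard error 0.70, edgeR adjusted p = 0.00131). Art3, an ADP-ribosyltransferase, had 2.76 (edgeR adjusted p = 0.000445) with 1.13, 0.693, 0.623, 1.46 and 2.19 cpm in RBP4 TRAP and 2.82, 9.13, 2.13, 1.94 and 8.83 cpm in RBP4 ST, against 3.86 to 6.03 cpm and 1.95 to 3.4 cpm in VGAT. Sumo3, a small protein attached to others, fell in both lines, from 337, 336, 382, 331 and 366 to 153, 96.7, 121, 125 and 152 cpm in RBP4 and from 502, 415, 331, 408 and 396 to 104, 108, 89.4, 83.6 and 114 cpm in VGAT. Its difference was 0.60 (standard error 0.19, edgeR adjusted p = 0.0359), with 0.186 in the fit with the block, and the call was lost without RBP4 ST replicates 1 and 5, RBP4 TRAP replicates 1, 2 and 4, VGAT ST replicates 3 and 4 and VGAT TRAP replicates 1, 2 and 4 (edgeR adjusted p = 0.0526 to 0.0901).

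The lists that hold Scly, Cep135 and Cirbp had called shares from about that of all genes (10.8%) downward. Of 46 tested genes of selenium, glutathione and thioredoxin metabolism 4 were higher and 1 lower (10.9% called, median 0.24), and 2 and 0 with the block. Gpx8, a glutathione peroxidase of the endoplasmic reticulum, was at 1.43, 1.14, 0.778, 1.05 and 2.46 cpm in RBP4 TRAP and 17.3, 19.2, 15.3, 10.1 and 13.2 cpm in RBP4 ST, and at 1.98, 2.44, 9.76, 4.12 and 4.62 cpm in VGAT TRAP and 11.5, 12.7, 16.9, 20.9 and 13.1 cpm in VGAT ST. ST exceeded TRAP in both lines, and the difference was 1.75 (edgeR adjusted p = 0.0119). Gpx6, another glutathione peroxidase, was at 0, 0, 0, 0.0455 and 0.224 cpm in RBP4 TRAP and 0.115, 0.282, 0, 0.538 and 0.0626 cpm in RBP4 ST, which is 0 to 10 counts a library, and at 4.97, 4.93, 4.46, 3.49 and 9.09 cpm in VGAT TRAP and 1.27, 0.793, 0.847, 1.78 and 3.1 cpm in VGAT ST. Its fitted difference was 3.64 (edgeR adjusted p = 0.0126), and 2.93 (edgeR adjusted p = 0.0695) without RBP4 ST replicate 4. Selenon, a selenoprotein of the endoplasmic reticulum, had 0.70 (edgeR adjusted p = 0.041), with 0.212 in the fit with the block. For Selenon the call was lost without RBP4 ST replicate 2, RBP4 TRAP replicates 2, 3 and 4, VGAT ST replicates 1, 3 and 4 and VGAT TRAP replicates 1, 3 and 4 (edgeR adjusted p = 0.0551 to 0.0846).

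Of 72 centrosome, centriole and cilium genes 0 were higher and 2 lower (2.78% called, median -0.29), and 1 with the block. Ift122, a part of the transport complex of cilia, was at 31.8, 45.3, 36.3, 49.4 and 57 cpm in RBP4 TRAP and 30.1, 22.6, 20.7, 30.6 and 26.5 cpm in RBP4 ST, and at 19.7, 22.2, 23, 23.3 and 19.3 cpm in VGAT TRAP and 24.6, 27.9, 23.2, 23.6 and 28.8 cpm in VGAT ST. The ST groups overlapped and RBP4 TRAP was above them, and the difference was -1.01 (standard error 0.20, edgeR adjusted p = 0.000965). Among 48 cold-inducible and RNA-transport proteins that bind RNA, 1 was higher and 0 lower (2.08% called, median 0.04), and 0 with the block. This gene was Elavl2, a neuronal Hu protein, at 108, 81.4, 83.6, 98.7 and 61.4 cpm in RBP4 TRAP and 29, 36.3, 23.2, 26.8 and 45 cpm in RBP4 ST, and at 222, 225, 164, 213 and 183 cpm in VGAT TRAP and 24.1, 26.3, 27.5, 49.8 and 48.7 cpm in VGAT ST. Its difference was 1.08 (standard error 0.29, edgeR adjusted p = 0.0126), and 0.076 with the block. Of 13 calpains and calpastatin, Capn3 was lower and Capn2, a ubiquitous calpain, higher (0.81, edgeR adjusted p = 0.0447, and 0.225 with the block). These 2 were 15.4% of the list, against 10.8% of all genes. The Capn2 call was lost without RBP4 ST replicates 1, 3 and 4, RBP4 TRAP replicates 1, 2, 3 and 4, VGAT ST replicates 2, 4 and 5 and VGAT TRAP replicates 1, 2, 4 and 5 (edgeR adjusted p = 0.0529 to 0.0929).

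Of 78 cytoplasmic ribosomal protein genes 0 were called in edgeR (median -0.02), with the smallest edgeR adjusted p at 0.0857 for Rpl10, although many of these genes have pseudogenes and uncertain counts. Of 92 nuclear genes of the respiratory chain and ATP synthase 3 were higher and 0 lower (median 0.35), and 2 with the block. The 3 genes were 3.26% of the list, against 10.8% of all genes. Cox6a2, a cytochrome c oxidase subunit of muscle and of some interneurons, was at 8.4, 10.1, 13.9, 11.6 and 11.4 cpm in RBP4 TRAP and 17.3, 13.7, 14.9, 8.45 and 15.5 cpm in RBP4 ST, and at 146, 130.2, 141, 209.6 and 149 cpm in VGAT TRAP and 13.9, 14.2, 54.5, 38.3 and 46.6 cpm in VGAT ST. Its difference was 2.55 (standard error 0.38, edgeR adjusted p = 1.62e-05). Cox8b, a subunit of the same enzyme, had 4.49 (edgeR adjusted p = 0.000797) at a mean of 0.0827 cpm in RBP4 TRAP. Sdhc, a subunit of succinate dehydrogenase, had 0.61 (edgeR adjusted p = 0.0449), and 0.233 with the block, and its call was lost without RBP4 ST replicates 3, 4 and 5, RBP4 TRAP replicates 1, 3 and 5, VGAT ST replicates 1, 2 and 5 and VGAT TRAP replicates 1, 2 and 4 (edgeR adjusted p = 0.061 to 0.0879).

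ST held far more glial RNA than TRAP in both lines. The summed level of 18 oligodendrocyte markers ran from 457 to 5864 cpm in RBP4 TRAP, from 521 to 2903 cpm in VGAT TRAP, from 33099 to 46078 cpm in RBP4 ST and from 33749 to 56032 cpm in VGAT ST. For 16 astrocyte markers the ranges were 1112 to 5254, 811 to 3060, 8980 to 33619 and 13139 to 31227 cpm, for 15 microglia markers 52.0 to 113, 68.3 to 213, 224 to 704 and 606 to 1106 cpm, and for 12 endothelial markers 27.4 to 46.8, 23.4 to 33.7, 43.8 to 861 and 59.6 to 555 cpm. Every oligodendrocyte, astrocyte and endothelial marker was higher in ST than in TRAP in both lines, as were 14 of the microglia markers in each. The line-by-compartment difference was past the threshold for 0 oligodendrocyte (median 0.07) and 0 endothelial markers (median -0.49), for 2 astrocyte markers, lower (median -0.50), and for 1 microglia marker, higher (median 0.70). Over all genes 10.8% passed. No marker of these lists was at 0 in all libraries of a group. Their part in the differences given above was not tested.

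**Figure D5:**
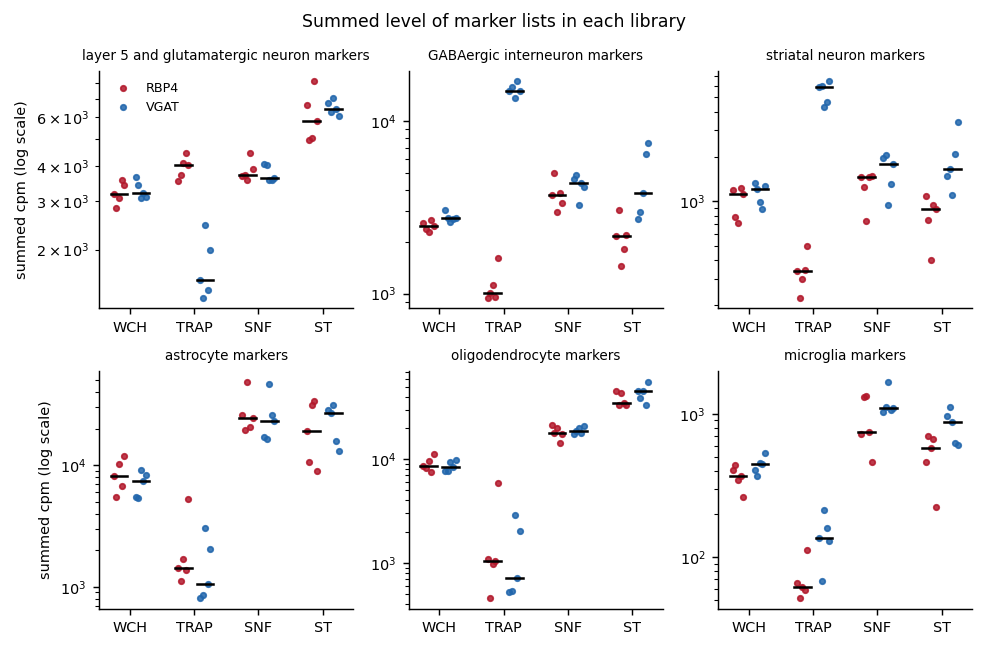
Summed cpm of the marker lists of each cell type (log vertical axis) in the 5 libraries of each fraction (WCH, TRAP, SNF and ST, horizontal axis) of RBP4 and VGAT, 1 point per library and a bar for the median. Oligodendrocyte and astrocyte sums are higher in every ST than in every TRAP library, the GABAergic sum is highest in VGAT TRAP with 13576 to 16998 cpm, and RBP4 TRAP replicate 5 lies above its group for the glial lists.

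The astrocyte genes past the threshold were Aldh1l1, a folate enzyme, and S100b, a calcium-binding protein. Aldh1l1 was at 40.9, 44.4, 48.7, 47.5 and 83.5 cpm in RBP4 TRAP and 162, 75, 162, 228 and 68.2 cpm in RBP4 ST, and at 3.89, 5.76, 15.8, 11.5 and 14.5 cpm in VGAT TRAP and 197, 168, 174, 96 and 92.1 cpm in VGAT ST. The TRAP groups did not overlap and the ST groups did, with a difference of -2.43 (standard error 0.47, edgeR adjusted p = 0.000592). S100b had -2.11 (edgeR adjusted p = 0.00532), at 90.5 to 175 cpm in RBP4 TRAP and 15 to 91.4 cpm in VGAT TRAP. By contrast Slc1a2, the main astrocyte glutamate transporter, had -0.94 (edgeR adjusted p = 0.444). P2ry12, a purine receptor of microglia, had 1.68 (edgeR adjusted p = 0.0379) and 0.21 with the block, and lost its call without RBP4 ST replicates 2 and 3, RBP4 TRAP replicates 2, 3 and 4, VGAT ST replicates 1, 2 and 5 and VGAT TRAP replicates 1, 3 and 4 (edgeR adjusted p = 0.0516 to 0.112). Of 9 nuclear long noncoding RNAs Kcnq1ot1 was lower (-3.91, edgeR adjusted p = 0.036, and 0.72 with the block), on a list median of -2.01. The list median was -1.35 with the block. This 1 call was 11.1% of the list, against 10.8% of all genes. Kcnq1ot1 was at 11.7, 3.71, 8.2, 8.74 and 305 cpm in RBP4 TRAP, and without replicate 5 of that group its difference was -0.85 (edgeR adjusted p = 0.633). Its call was also lost without other libraries, all in all RBP4 ST replicates 3 and 4, RBP4 TRAP replicate 5, VGAT ST replicates 4 and 5 and VGAT TRAP replicates 1, 2 and 4 (edgeR adjusted p = 0.0527 to 0.633). Of 5 sex-linked genes 0 passed the edgeR threshold (median -0.57).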

How the data were processed

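RNA of 40 libraries was sequenced as single reads of 50 bases, and 20 TRAP and ST libraries carry the comparison. The deposited values are counts of uniquely aligned reads per gene, which the authors made with STAR 2.0.4b, an Ensembl assembly and featureCounts 1.4.5, with the use of strand and the build not given in the sources used here. The CPM and RPKM values the authors deposited are those counts scaled to library size and gene length, and were used only to check them. Coordinates are those of the files, and equal GENCODE M21 (GRCm38) for 30702 of 40340 matched genes. Counts of genes with near-identical copies or overlapping neighbours are uncertain.

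Here cpm were computed without 37 mitochondrial and 353 rRNA and tRNA genes. Genes with 0.5 cpm in at least 3 of the 20 libraries entered glmQLFit and glmQLFTest of edgeR 4.0.16 (R 4.3.3) with 30 libraries (WCH, TRAP and ST), by group, scaled to library size alone, with Benjamini-Hochberg adjustment over 16898 genes. Untagged RNA was tested on all 40 libraries. Pool differences used log2(cpm + 0.5), and other steps Python 3.11.15. The test was tried on simulated data.

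Named genes were Scly, Cirbp and Cep135, 5 genes of the study's text, the 8 of smallest p in each direction with at least 1 cpm, an adjusted p of at most 0.05 and pool differences that separate the lines, up to 6 per direction likewise among ST differences beyond TRAP, and up to 4 per gene list. Predicted genes were passed over, and some genes that the rule picks are not reported here. Genes and lists were chosen with earlier results of these data known. Other members of lists are named as counts required.

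Same-numbered ST and TRAP libraries of a line come from 1 pool by design. Their deviations from the group means correlated by -0.16 to 0.10 in RBP4 and -0.01 to 0.13 in VGAT, and the block is given beside a result where it matters. The alternatives were TMM factors, DESeq2's size factors, DESeq2 1.42.0, a likelihood ratio test, other filters and exclusions, 20 or 40 libraries, the block, and each library and each pool left out in turn.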

Additional observations from a re-analysis of the deposited data

Results flagged for a closer look

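A single library stood far from the other 4 of its group, by Dixon's test at the 95% level, in 28 of 212 groups of values. Chance gives about 5%, or 1 in 20, only for independent groups of normally distributed values. The values tested were cpm, sums of cpm and shares without a log, and the groups share the same 20 libraries. The 28 can therefore not be set against that 5%. Of the 28, 12 were in RBP4 TRAP, 6 in VGAT TRAP, 6 in RBP4 ST and 4 in VGAT ST. RBP4 TRAP replicate 5 was the high library for the summed markers of astrocytes (5254 cpm), oligodendrocytes (5864 cpm), microglia (113 cpm), GABAergic interneurons (1608 cpm) and for nuclear long noncoding RNAs (7842 cpm). It was also high for Mbp (2705 cpm), Aldh1l1 (83.5 cpm), Kcnq1ot1 (305 cpm), Kcnc2 (28.3 cpm), Capn11 (1.29 cpm) and Gpx6 (0.224 cpm), while Pcp4l1 was high in replicate 1 (35.5 cpm). In RBP4 ST, replicate 2 was high for endothelial markers (861 cpm) and Bdnf (189.7 cpm), and replicate 4 for Ak4 (38.9 cpm) and Kcnc1 (163 cpm). Replicate 5 was high for Fezf2 (46.4 cpm), and replicate 3 low for Stx1a (178 cpm). Slc32a1, at 49.9 cpm in RBP4 ST replicate 4, was not among the genes put through Dixon's test. In VGAT TRAP, replicate 3 was high for Fezf2 (18.6 cpm), Dtx4 (21.2 cpm) and summed sex-linked genes (106 cpm), replicate 4 for Sst (3648 cpm) and Cox6a2 (209.6 cpm), and replicate 5 for Gpx6 (9.09 cpm). In VGAT ST, replicate 5 was high for Scly (13.5 cpm) and Syndig1l (103.6 cpm), replicate 2 for Kcnc1 (237 cpm) and replicate 3 for the mitochondrial share (19.0%).

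The other results are listed because the lines differed in ST less TRAP by the edgeR test of that difference itself. It passed for 849 genes with a higher and 978 with a lower value in RBP4. Among the named genes with a positive log2 difference were Sst (2.37), Cort (1.93), Dlx1 (4.53), Pcp4l1 (4.22), Sp9 (4.62), Rbms3 (4.02), Lhx6 (4.30), Syndig1l (3.84), Ubash3b (3.13), Cd72 (3.38), Art3 (2.76), Ifit1 (3.35), Sumo3 (0.60), Foxp2 (2.08) and Dlx6 (4.43). Further ones were Maf (3.33), Six3 (4.98), Rasd2 (2.42), Ppp1r1b (3.61), P2ry12 (1.68), Elavl2 (1.08), Gpx8 (1.75), Gpx6 (3.64), Selenon (0.70), Capn2 (0.81), Vamp1 (1.93), Cplx3 (1.65), Pnoc (3.62), Vip (4.06), Crhbp (2.81), Tac2 (3.58), Kcnip2 (1.98), Kcnc2 (2.39), Kcnmb2 (3.37), Kcnc1 (1.92), Grin3a (1.11), Grik1 (1.61), Cox6a2 (2.55), Cox8b (4.49) and Sdhc (0.61). With a negative one they were Scly (-0.88), Cep135 (-1.09), Etv1 (-2.18), Dtx4 (-1.73), Col22a1 (-4.06), Plb1 (-2.85), Stx1a (-2.36), Dysf (-2.38), Pik3r6 (-2.97), Capn3 (-3.40), Lct (-2.83), Ighg2c (-2.19), Ak4 (-2.35), Fezf2 (-3.65), Emx1 (-3.13), Aldh1l1 (-2.43), S100b (-2.11), Kcnq1ot1 (-3.91), Ift122 (-1.01), Bdnf (-2.65), Sv2b (-2.30), Grm2 (-2.55) and Gabra5 (-1.18).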

How the results depend on the processing

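No value changed its direction under an alternative while past the threshold. Of the 1198 values of single genes under settings other than leaving out a library or pool, 1132 kept their side of the threshold, 43 lost the call and 23 gained it. Of the 3000 with 1 library or 1 pool left out, 2785 kept it, 143 lost it and 72 gained it.

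The number of genes with a line-by-compartment difference fell to 512 higher and 477 lower with the pool as a replicate block, to 392 lower with the block and TMM factors (chosen after seeing the data), and to 558 lower with 20 TRAP and ST libraries in place of 30. Without 1 library it ran from 728 to 1013 higher and from 767 to 1155 lower, without 1 pool from 637 to 1057 and from 703 to 1318, and 624 higher and 622 lower genes were called in every such fit of the 20 libraries. The block changed the calls of single genes as given beside them. The line differences could not be fitted with the block, since each pool belongs to 1 line.

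The ST difference between the lines was the least stable count. It came to 2 higher and 10 lower genes with 20 libraries, 77 higher with DESeq2, 28 lower with DESeq2's size factors, and 19 higher and 121 lower by the likelihood ratio test. Without 1 library it ran from 1 to 33 higher, where RBP4 ST replicates 4 and 5 and every VGAT ST replicate moved it by over 1.5 times, and from 20 to 162 lower, where RBP4 ST replicates 2, 3, 4 and 5 and VGAT ST replicates 4 and 5 did. ST differences beyond TRAP numbered 29 higher and 173 lower with 20 libraries, 191 and 165 with DESeq2, 176 and 148 with its size factors, 108 and 186 with TMM factors, 101 and 627 without a filter, and 1 and 4 with both p values adjusted. Without 1 library they ran from 33 to 122 and from 145 to 515, where RBP4 ST replicates 2, 3, 4 and 5 and VGAT ST replicate 4 moved the higher count, and RBP4 ST replicate 4 and VGAT ST replicates 3 and 5 the lower count, by over 1.5 times. The fit with 20 libraries has fewer samples from which to take the spread, and the other causes were not tested. The ST less TRAP counts within a line and the TRAP line difference stayed within 1.5 times under all settings tried. At 1 count for 0.0455 to 0.0847 cpm, depth limits genes with a few counts such as Capn11.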
